A study of Mus musculus with 12 samples.

Results

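Mbp, Mag, Mog and Mobp encode proteins of the myelin sheath, and Lass2 encodes ceramide synthase 2 (Cers2 in current RefSeq naming). All probes annotated with 1 of these 5 symbols were taken, which gave 7 of 29922 probes. Of all probes, 21020 carry 1 of 16675 symbols and 8902 carry none. Mbp, Mag and Mog have 1 probe each, whereas Mobp and Lass2 have 2 each. The genes were chosen with results of these arrays known, and Lass2 was selected on the brain intensities of its probe mMC011756 in chitosan against mock. Therefore all brain values on chitosan against mock are given as a description without a test, and so is every organ difference of that probe.

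Myelin is the lipid-rich membrane that oligodendrocytes wrap around axons in the central nervous system and Schwann cells wrap around axons in peripheral nerves. Mbp seals the cytoplasmic faces of the compact layers and Mobp lies in the same compact layers, Mag sits on the innermost layer facing the axon, and Mog lies on the outermost layer. Ceramide synthases join a fatty acid to a sphingoid base. Lass2 prefers very long acyl chains, and its product feeds galactosylceramide and sulfatide, the typical lipids of myelin. Lass2 is widely expressed, and mice without it lose myelin with age.

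RNA came from male FVB mice of 6 to 8 weeks, all heterozygous for a transgene in which 5 copies of the peroxisome proliferator response element (PPRE, the DNA site bound by PPAR receptors) and the tk promoter drive luciferase, so that mock mice carry it too. Mice received saline (mock) or 0.2 g/kg chitosan under the skin, and the brain and the stomach were taken on day 3. Each of the 4 groups, mock brain, chitosan brain, mock stomach and chitosan stomach, has 3 single-color arrays, and the methods state 3 independent mice. The sources used here do not say whether the 2 organs came from the same mice, nor which part of an organ was used.

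Intensities below are linear Cy5 values, without a unit. Each array has a lowest value of 34.3 to 35.3, a median of 47 to 47.8 and a highest value of 28367.2, and 9.52% to 10.6% of its probes lie above 2 times its lowest value (68.7 to 70.5). The files hold no detection call, so a probe at or under that limit on every array of a group is treated as not above background there, and a fold against it is also given as "at least", with the limit in place of the dim values. Log2 differences of dim probes are compressed toward 0. Neuronal markers summed to 5469 to 7706 over 9 genes in the brain arrays and to 471 to 564 in the stomach arrays. Most of the brain sum was Snap25, with means of 4960 in mock and 4932 in chitosan brain. Stomach gland markers summed to 1502 to 16377 over 9 genes in the stomach arrays and to 401 to 419 in the brain arrays, so the organ labels and their markers go together. Arrays hold RNA of organ tissue, in which fewer cells of a type, less RNA per cell and another sampled part cannot be told apart.

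**Figure D1:**
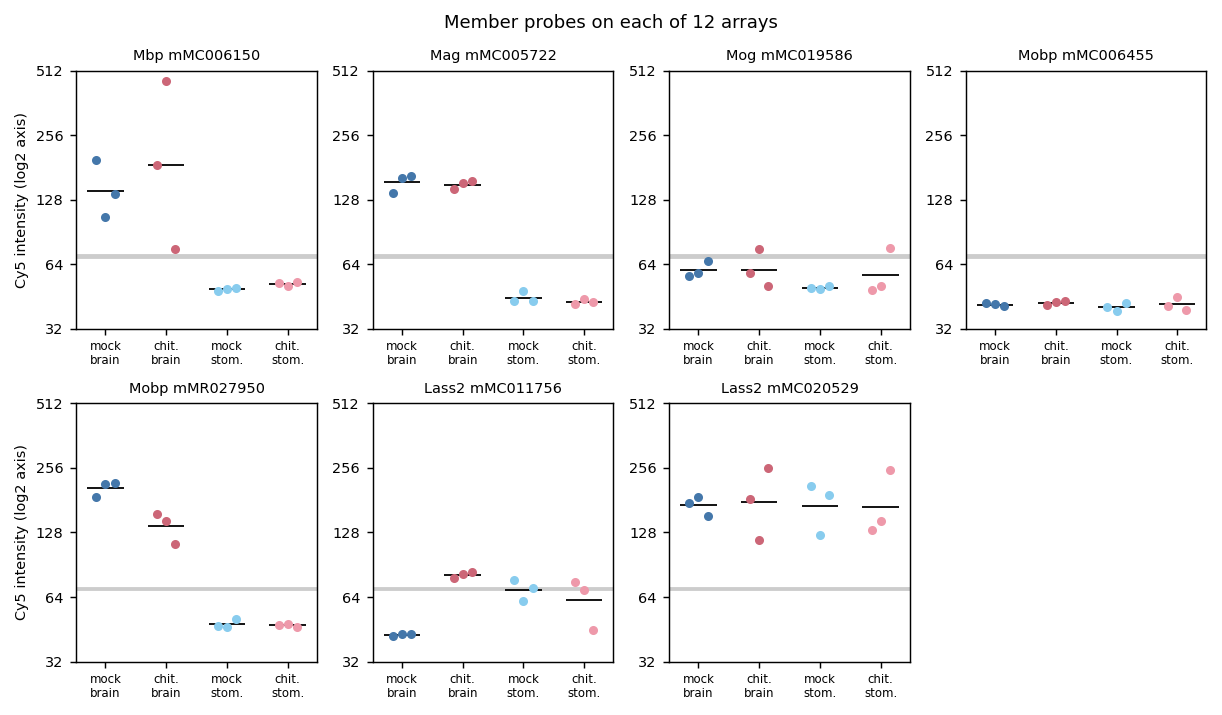
Cy5 intensity (log2 axis) of the 7 probes in the 4 groups; each point is 1 array, the black line is the geometric mean of 3 arrays, and the gray band spans 2 times the lowest intensity of the 12 arrays (68.7 to 70.5). Mag and Mobp mMR027950 lie above the band on every brain array and below it on every stomach array, Lass2 mMC011756 lies near 43 on the 3 mock brain arrays, and Lass2 mMC020529 lies between 118 and 257 on all 12.

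The first question was how far the myelin genes differed between the organs. Mag, Mobp and Mbp were lower in mock stomach than in mock brain, by 2.05 to 2.99-fold at least. Mag and Mobp were lower in the stomach of chitosan mice as well, whereas Mog stood close to background in both organs. The 2 organ comparisons share no array with each other, but each array also enters a comparison of chitosan with mock.

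Mag (GRCm38.p6 chromosome 7, 30899175 to 30914922, minus strand) had intensities of 137, 162 and 165 in mock brain (155 ± 15.3, SD, n = 3) and of 143, 153 and 156 in chitosan brain (151 ± 6.71). In mock stomach they were 43.2, 47.9 and 43 (44.7 ± 2.79), and in chitosan stomach 41.8, 43.9 and 42.7 (42.8 ± 1.09). Every brain array was thus above every stomach array, and the 2 brain groups overlapped. The log2 difference, stomach over brain, was -1.79 (SE 0.13) in mock mice, with an adjusted p of 3.1e-04 by limma with Benjamini-Hochberg adjustment over all probes. In chitosan mice it was -1.82 (SE 0.14) with an adjusted p of 0.0059. As Mag was not above background in the stomach, brain was at least 2.24-fold higher in mock mice and at least 2.17-fold higher in chitosan mice.

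Mobp (chromosome 9, 120149742 to 120181488, plus strand) is read by a bright and a dim probe. The bright probe mMR027950 gave 186, 214 and 218 in mock brain (206 ± 17.2), and 156, 145 and 113 in chitosan brain (138 ± 22.2). It gave 47.1, 46.3 and 50.6 in mock stomach (48 ± 2.27), and 47.6, 47.9 and 46.4 in chitosan stomach (47.3 ± 0.788). Every brain array was thus above every stomach array. Each mock brain array was also above each chitosan brain array, as was so in this direction for 6.79% of all probes, and that step was not tested. Stomach over brain, the log2 difference was -2.10 (SE 0.15, limma adjusted p 2.8e-04) in mock mice and -1.53 (SE 0.18, adjusted p 0.0080) in chitosan mice, and brain was at least 2.99-fold and at least 1.97-fold higher. The dim probe mMC006455 read 38.7 to 45 on all 12 arrays, which is not above background in any group, and its organ differences were -0.04 (SE 0.04, adjusted p 0.64) and -0.02 (SE 0.05, adjusted p 0.91). At background, the dim probe gives no answer on Mobp, and the sequences and transcripts of the 2 probes are not used here.

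The promoters of Mag and Mobp are shown because both genes moved together between the organs, and each window runs from 250 bases before to 50 bases after the annotated start (RefSeq, GRCm38.p6). Both strands were searched for ACAAAG (reverse complement CTTTGT), a core of the sites bound by Sox proteins, among them Sox10 of oligodendrocytes, and for AGGTCA (reverse complement TGACCT), the hexamer from which a PPRE is built. Capitals mark the matches.
Mag promoter, chr7:30914873-30915172, minus strand: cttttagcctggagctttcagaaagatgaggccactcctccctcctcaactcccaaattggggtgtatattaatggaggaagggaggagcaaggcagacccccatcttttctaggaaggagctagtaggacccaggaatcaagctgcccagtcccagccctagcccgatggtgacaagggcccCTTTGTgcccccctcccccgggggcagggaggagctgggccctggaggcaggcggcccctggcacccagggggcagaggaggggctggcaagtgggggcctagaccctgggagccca
Mobp promoter, chr9:120149492-120149791, plus strand: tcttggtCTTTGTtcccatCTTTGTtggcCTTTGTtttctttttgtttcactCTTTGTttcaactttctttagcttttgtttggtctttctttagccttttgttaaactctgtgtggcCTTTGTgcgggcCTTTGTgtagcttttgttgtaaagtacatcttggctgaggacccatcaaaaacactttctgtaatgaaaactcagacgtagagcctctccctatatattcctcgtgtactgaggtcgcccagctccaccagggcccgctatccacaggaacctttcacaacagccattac

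Mag has several annotated starts, of which only the window at the outer end of the gene is reported. That window holds 1 match to the Sox core, which begins 67 bases before the start. The Mobp window holds 6, beginning 243, 231, 221, 198, 132 and 120 bases before the start, all on the reverse strand and without overlap. Of 32851 RefSeq promoter windows of this length, 6147 (18.7%) hold at least 1 Sox core and 1 (0.00304%), the Mobp window itself, holds at least 6. The limit of 6 was taken from the Mobp window, so that share is a description and not a test. The Mog window, searched in the same way, holds no match to either motif, and that of Mbp was not analysed here. Neither printed window holds the PPRE hexamer, which 5340 windows (16.3%) hold. These are letter matches and no measurement of binding.

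Mbp, which lies on chromosome 18, varied most among the myelin genes. Its intensities were 195, 106 and 135 in mock brain (145 ± 45.6), and 186, 458 and 75.7 in chitosan brain (240 ± 197). They were 48.2, 48.9 and 49.3 in mock stomach (48.8 ± 0.591), and 52.2, 50.8 and 52.8 in chitosan stomach (51.9 ± 1.02). All brain arrays lay above all stomach arrays, but the chitosan brain arrays spread from the lowest to the highest brain value. Mbp was lower in mock stomach, with a log2 difference of -1.53 (SE 0.22, limma adjusted p 0.0051), and brain was at least 2.05-fold higher. In chitosan mice the difference was -1.84 (SE 0.59, adjusted p 0.28) and did not pass the test. It was -2.49 (adjusted p 0.026) without chitosan brain array 3, the lowest at 75.7, and -1.19 (adjusted p 0.35) without array 2, the highest at 458. In the model of all 12 arrays the adjusted p was 0.11 in mock mice and 0.066 in chitosan mice.

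Mog (chromosome 17, 37010740 to 37023398, minus strand) gave 56.2, 58.2 and 66.2 in mock brain (60.2 ± 5.34), and 58, 75 and 50.6 in chitosan brain (61.2 ± 12.5). In mock stomach it gave 49.3, 48.9 and 50.6 (49.6 ± 0.867), and in chitosan stomach 48.6, 50.8 and 76.1 (58.5 ± 15.3). Only 1 chitosan brain array and 1 chitosan stomach array were above background, so its order of groups rests on values close to background. The mock arrays of the 2 organs did not overlap, as was so in this direction for 13.9% of all probes, but the difference of -0.28 (SE 0.08) had an adjusted p of 0.10, and that in chitosan mice was -0.08 (SE 0.21, adjusted p 0.93).

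Of all probes, 6.38% were called in mock mice (2.83% lower in stomach) and 2.38% in chitosan mice (1.44% lower in stomach). Of the 5 myelin probes, 3 were called lower in mock stomach and 2 in chitosan stomach. Without chitosan stomach array 2 no probe was called in chitosan mice, and Mag had an adjusted p of 0.062 and the bright Mobp probe of 0.10. Without chitosan stomach array 1 the bright Mobp probe had an adjusted p of 0.060.

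**Figure D2:**
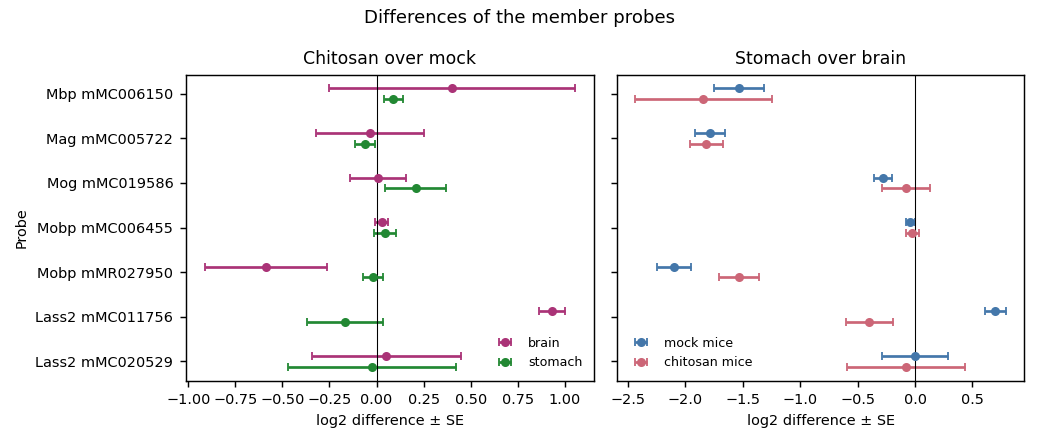
Log2 differences with their standard errors from limma (3 arrays against 3) for the 7 probes, chitosan over mock on the left and stomach over brain on the right. Mag, Mbp and Mobp mMR027950 lie between -2.10 and -1.53 on the right in both treatments, and Lass2 mMC011756 stands at 0.93 in brain on the left, the value from which it was chosen.

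The second question was whether the myelin genes differed between chitosan and mock brain. The bright Mobp probe was lower in chitosan brain, from 206 to 138 in the means, and each of its 3 chitosan arrays was below each mock array. The log2 difference was -0.59 (SE 0.33), a ratio of 1.503. With each array left out it ran from -0.68 to -0.45. The genes were chosen with results of these arrays known, so that range is a description and no check. Mag and Mog had log2 differences of -0.03 (SE 0.29) and 0.01 (SE 0.15), and the dim Mobp probe of 0.03 (SE 0.03). For Mbp the difference was 0.40 (SE 0.65). It rested on chitosan brain array 2, whose 458 was the highest value of any member, since it was -0.25 without that array and 1.05 without array 3, the lowest.

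Over all probes, limma called 0 in this comparison (0%), while 1945 (6.5%) had an unadjusted p under 0.05 and the methods' t-test with adjustment also called 0. Arrays of the 2 groups did not overlap for 11.8% of all probes (5.0% higher and 6.79% lower in chitosan brain), and 0.368% reached 2-fold. Of the 7 member probes, 2 did not overlap, the bright Mobp probe and Lass2 mMC011756, and none reached 2-fold. The choice of the genes used this comparison, so nothing is read from this count. Other values moved with it: striatum markers were higher for 6 of 7 genes, with a median log2 difference of 0.29 and a summed intensity of 379 to 401 in mock and 482 to 544 in chitosan brain. None of the 7 striatum markers was called, and 1 of them was above background in mock and 3 in chitosan brain. Enteric neuron markers summed to 1255 to 1297 in mock and 1775 to 2154 in chitosan brain, but 3 of 7 were higher and 4 lower, and without Uchl1, the only one above background, the sums were 307 to 328 and 299 to 319. The number of distinct intensities on an array was 308 to 382 in mock and 447 to 947 in chitosan brain. Summed neuronal markers, mostly Snap25, overlapped, at 5535 to 7706 in mock and 5469 to 7569 in chitosan brain. So did astrocyte markers, at 602 to 682 and 507 to 782. The part of these differences in the Mobp and Lass2 values was not tested.

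In the stomach none of the 7 member probes was called between chitosan and mock, and neither was any of all probes (0%). Before adjustment 1571 of all probes (5.25%) and 0 of the member probes had a p under 0.05, and the methods' t-test with adjustment called 3 of all probes. Log2 differences of the myelin probes were 0.09 (SE 0.05) for Mbp, -0.06 (SE 0.05) for Mag, 0.21 (SE 0.16) for Mog, and 0.04 (SE 0.06) and -0.02 (SE 0.05) for Mobp, with limma adjusted p of 0.85 to 0.95. These genes were at background there, apart from chitosan stomach array 3 for Mog. The Mbp arrays did not overlap, with 48.2 to 49.3 in mock and 50.8 to 52.8 in chitosan stomach, as was so for 12.2% of all probes. In this comparison stomach gland markers were lower for 9 of 9 genes, with sums of 9643 to 16377 in mock and 1502 to 3644 in chitosan stomach. Smooth muscle markers were higher for 7 of 8, with sums of 7425 to 9050 and 13059 to 16306. Neither list has a gene past the test, and their part in the member values was not tested. The Schwann cell and enteric glia list has 8 measured genes, of which 0 were above background in either stomach group (summed 375 to 410 in mock and 387 to 406 in chitosan stomach).

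Lass2 (chromosome 3, 95314771 to 95323599, plus strand) is read by a pair of probes that differed in their pattern over the 4 groups. The RefSeq table holds 2 start windows for the gene, neither at the first base of the locus. They are shown because the 2 probes differed in brain, on the values that chose mMC011756, and because the transgene reports PPRE activity. Capitals mark the PPRE hexamer.
Lass2 start 1, chr3:95314940-95315239, plus strand: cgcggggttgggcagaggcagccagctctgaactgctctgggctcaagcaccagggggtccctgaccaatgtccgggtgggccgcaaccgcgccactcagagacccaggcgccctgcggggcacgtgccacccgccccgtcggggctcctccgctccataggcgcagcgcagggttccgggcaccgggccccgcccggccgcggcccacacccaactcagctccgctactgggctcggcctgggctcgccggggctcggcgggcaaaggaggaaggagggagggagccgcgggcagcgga
Lass2 start 2, chr3:95318580-95318879, plus strand: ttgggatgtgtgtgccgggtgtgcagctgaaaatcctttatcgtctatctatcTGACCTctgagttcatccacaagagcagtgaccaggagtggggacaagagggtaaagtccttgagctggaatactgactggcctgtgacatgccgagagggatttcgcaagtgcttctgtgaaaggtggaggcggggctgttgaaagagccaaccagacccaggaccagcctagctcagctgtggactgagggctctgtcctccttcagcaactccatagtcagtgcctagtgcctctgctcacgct

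The window of start 1, of 75% G and C, holds neither motif. That of start 2, of 54.3% G and C, holds 1 PPRE hexamer on the reverse strand, which begins 197 bases before the start, and no Sox core. Which start, exon or untranslated part either probe reads was not analysed here.

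The probe mMC011756 gave 42, 42.9 and 43 in mock brain (42.6 ± 0.555), and 78.8, 81.6 and 83.9 in chitosan brain (81.4 ± 2.59). In mock stomach it gave 77, 61.2 and 70.6 (69.6 ± 7.96), and in chitosan stomach 75.5, 69 and 45.1 (63.2 ± 16). Mock brain was thus the low group, chitosan brain was above all other arrays, and the 2 stomach groups overlapped in between. In brain the log2 difference, chitosan over mock, was 0.93 (SE 0.07), which is 1.91-fold. Leaving out each array gave 0.91 to 0.96, but these values chose the probe, so the range is no check of the difference. The mock brain values were not above background, and against the limit the chitosan mean was at least 1.18-fold higher. Each mock brain value was shared by 1582 to 1778 other probes of its array, and each chitosan brain value by 11 to 49.

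The background also sets the size of this difference. After 35 was subtracted from every intensity, the brain difference of mMC011756 was 2.60 on the log2 scale instead of 0.93. Stomach over brain, the log2 difference was 0.70 (SE 0.09) in mock mice and -0.40 (SE 0.20) in chitosan mice, and it was 2.15 and -0.95 after the subtraction. Thus the order of the organs was opposite in the 2 treatments, and the brain values that chose the probe enter both. The difference in chitosan mice rested largely on chitosan stomach array 3, at 45.1, since without it the value was -0.17 (SE 0.14).

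The probe mMC020529 gave 175, 187 and 153 in mock brain (172 ± 17.1), and 184, 118 and 257 in chitosan brain (186 ± 69.4). It gave 211, 124 and 191 in mock stomach (175 ± 45.4), and 132, 145 and 251 in chitosan stomach (176 ± 65.4). All 12 values were above background and every pair of neighboring groups overlapped. Its log2 difference, chitosan over mock, was 0.05 (SE 0.40) in brain and, in stomach, -0.02 (SE 0.45, limma adjusted p 0.99). Stomach over brain it was 0.00 (SE 0.29, adjusted p 1.0) in mock mice and -0.08 (SE 0.51, adjusted p 0.97) in chitosan mice. Its standard errors, 0.29 to 0.51, were larger than those of mMC011756, 0.07 to 0.20.

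The effects of the 2 Lass2 probes differed by 0.88 (SE 0.33) on the log2 scale in brain, the comparison from which mMC011756 was chosen. In stomach mMC011756 differed by -0.17 (SE 0.20, limma adjusted p 0.89) between chitosan and mock. There the effects of the probes differed by -0.14 (SE 0.54), with a two-sided exact permutation p of 0.9, where 0.1 is the smallest p that 3 arrays against 3 allow. The stomach value of mMC011756 rested on chitosan stomach array 3, the lowest stomach array at 45.1, since without it the difference was 0.06.

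**Figure D3:**
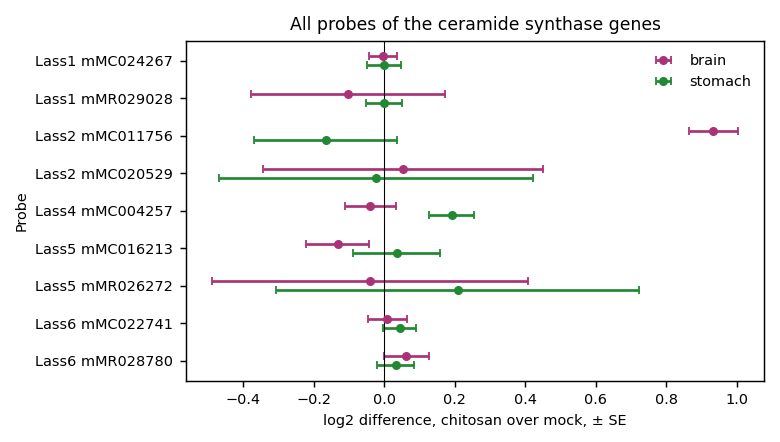
Log2 differences, chitosan over mock, with limma standard errors (3 arrays against 3) for all 9 probes of the 5 ceramide synthase genes that were matched, in brain and in stomach. Lass2 mMC011756 in brain, at 0.93, is the value from which it was chosen, and the other 8 probes lie between -0.13 and 0.06 in brain.

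The other ceramide synthases were Lass1, Lass4, Lass5 and Lass6, which differ in the acyl chains they prefer. Lass1, an enzyme of neurons, was lower in stomach like Mag. Its bright probe had means of 150 ± 18.0 in mock brain and 139 ± 3.18 in chitosan brain, against 50.2 ± 0.722 and 50.1 ± 0.718 in stomach. The log2 difference was -1.57 (SE 0.14, limma adjusted p 5.3e-04) in mock mice and -1.47 (SE 0.15, adjusted p 0.0070) in chitosan mice. Its other probe read 41.0 to 41.9 in the group means. The bright probe of Lass5 was above background in all groups, with means of 381 ± 39.3, 380 ± 107, 263 ± 38.9 and 312 ± 97.2 in mock brain, chitosan brain, mock stomach and chitosan stomach, and neither its organ differences (adjusted p 0.40 and 0.89) nor its stomach difference on chitosan (adjusted p 0.94) passed the test. The other Lass5 probe was at background, with group means of 46.9 to 51.6. Lass4 and Lass6 stood at background in all 4 groups.

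Of 48 other genes of the ceramide and sphingolipid pathway, 45 were measured, each by its brightest probe, and 18 were above background in some group. Chitosan against mock, 25 were higher and 20 lower in brain and 24 were higher and 21 lower in stomach, with 0 called in either organ. The median log2 differences were 0.01 and 0.01, against -0.01 and 0.01 over all probes. Between the organs, 9 genes were called higher and 2 lower in mock stomach (median 0.07, all probes -0.02), and 4 were called higher and 2 lower in chitosan stomach (median 0.06, all probes 0.01). Of all probes, 3.54% and 0.939% were called higher in mock and chitosan stomach, and 2.83% and 1.44% lower. The 2 that were lower in both were Lass1 and Ugt8a, which makes the galactosylceramide of myelin.

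By step of the pathway, Degs2, which hydroxylates sphingoid bases, had means of 48.9 ± 1.36 in mock brain and 262 ± 10.03 in mock stomach (log2 difference 2.42, adjusted p 2.3e-04). Sptlc1, a subunit of the enzyme that opens sphingolipid synthesis, had 54.9 ± 12.7 and 135 ± 55.2 (log2 difference 1.25, adjusted p 0.049 in mock and 0.40 in chitosan mice). Dbi, which binds the acyl-CoA that ceramide synthases use, was higher in mock stomach (4609 ± 997) than in mock brain (1606 ± 107), with a log2 difference of 1.5 (adjusted p 0.0010), but in chitosan mice its difference of 1.15 had an adjusted p of 0.14. Elovl4, an elongase of very long chains, and Asah2, a ceramidase, were higher in the stomach of both treatments, with log2 differences of 1.45 and 1.78, and of 1.28 and 1.51. Gba2, a glucosylceramidase, had 103 ± 9.51 and 195 ± 18.4 in mock brain and mock stomach (log2 difference 0.92, adjusted p 0.046 in mock and 0.64 in chitosan mice). Fa2h, which hydroxylates the fatty acids of myelin lipids, had a log2 difference of 0.47 (SE 0.23, adjusted p 0.35) in mock mice.

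Myelin and oligodendrocyte genes other than the members numbered 33, of which 28 were measured and 14 were above background in some group. In mock mice 7 of the 28 were called lower in stomach and 0 higher, with a median log2 difference of -0.11 (all probes -0.02). In chitosan mice 5 were called lower and 0 higher, with a median of -0.03 (all probes 0.01). Of all probes, 2.83% and 1.44% were called lower in mock and chitosan stomach. That share covers every probe, most of them dim, whereas the listed genes are taken by their brightest probe. Cnp, Ugt8a and Olig1 were called in both, Cldn11, Omg, Sirt2 and Olig2 in mock mice and Mal and Sox10 in chitosan mice. The organ difference did not differ between the treatments beyond the threshold for any of the 6 genes called in 1 treatment alone, with limma adjusted p of 0.15 for Mal and 0.60 to 0.97 for the other 5 in a model of all 12 arrays.

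Olig1, a transcription factor of the oligodendrocyte lineage, was the brightest of these in brain, with 738 ± 102 in mock and 659 ± 120 in chitosan brain against 48.7 ± 1.69 and 48.6 ± 1.90 in stomach. Its log2 differences were -3.91 (SE 0.25, limma adjusted p 2.3e-04) and -3.74 (SE 0.42, adjusted p 0.0078). Ugt8a went from 334 ± 56.9 in mock brain to 59.5 ± 7.40 in mock stomach (adjusted p 7.2e-04), and Cnp, an enzyme of the cytoplasmic channels of myelin, from 157 ± 20.7 to 57.8 ± 5.16 (adjusted p 0.0018). Pmp22, a protein of peripheral myelin, was higher in stomach in its means, at 139 ± 30.3 against 93.5 ± 9.59 in mock mice, but its difference of 0.56 (SE 0.21) had an adjusted p of 0.23. Cspg4, a marker of oligodendrocyte precursors, was at background in all groups.

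**Figure D4:**
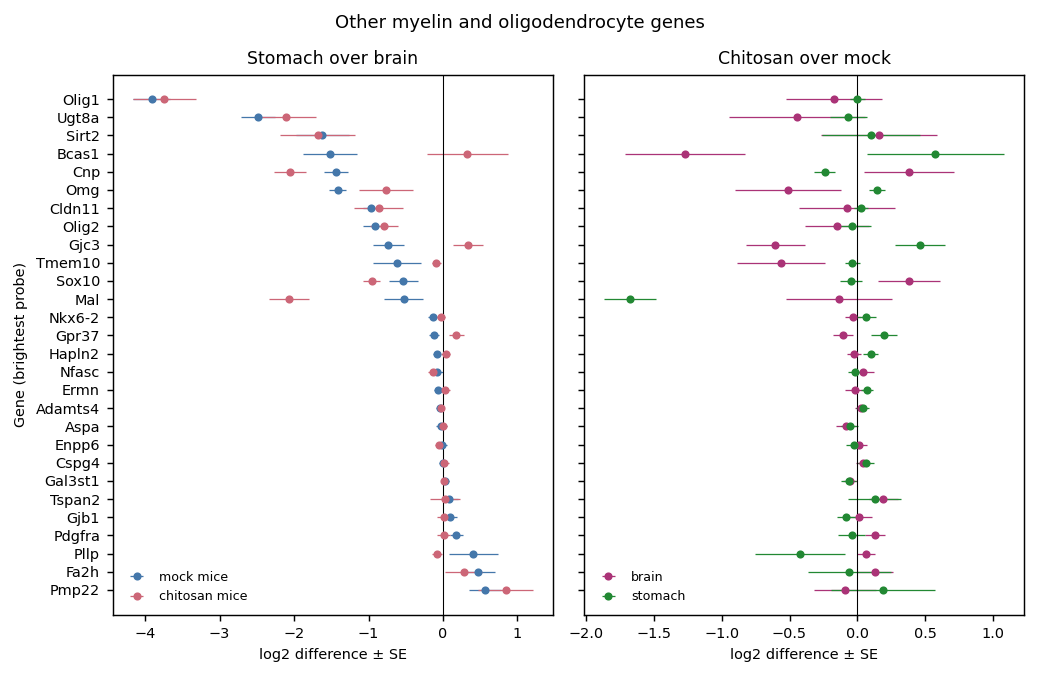
Log2 differences with limma standard errors of the 28 measured myelin and oligodendrocyte genes other than the members (brightest probe of each), stomach over brain on the left and chitosan over mock on the right. Olig1 and Ugt8a lie farthest left between the organs in mock mice (-3.91 and -2.49). On chitosan the largest differences are those of Bcas1 in brain (-1.27) and Mal in stomach (-1.68). Only 14 of the 28 genes are above background in some group, and differences of the others are compressed toward 0.

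Chitosan against mock brain, 12 of the 28 genes were higher and 16 lower, with 0 called and a median of -0.03 (all probes -0.01). Summed over the 28 genes, the intensity was 3434 to 3851 in mock and 3251 to 3322 in chitosan brain. The arrays did not overlap, but without Bcas1 they did, at 3122 to 3459 and 3088 to 3174. Bcas1, a gene of newly forming oligodendrocytes, had 312, 392 and 310 in mock brain and 148, 90.8 and 201 in chitosan brain, a log2 difference of -1.27 (SE 0.44). Cnp ran the other way, with 137, 178 and 155 in mock and 193, 192 and 226 in chitosan brain, a difference of 0.38 (SE 0.33). Of the 28 genes these and Gjc3 (-0.61) were the 3 whose brain arrays did not overlap, against 11.8% of all probes.

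In the stomach 13 of the 28 were higher and 15 lower on chitosan, with 0 called and a median of -0.01 (all probes 0.01). Mal, a membrane sorting protein of myelin and of epithelia, had 151, 157 and 149 in mock and 59.4, 45 and 40.4 in chitosan stomach, a log2 difference of -1.68 (SE 0.19) with a limma adjusted p of 0.097, beside the stomach gland markers described above. Olig1 and Olig2, at background or close to it in the stomach, had log2 differences of 0.00 and -0.04.

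The arrays within chitosan brain were ordered differently by different genes. For Mbp (186, 458 and 75.7) and Mog, array 2 was the highest and array 3 the lowest, whereas for Lass2 mMC020529 (184, 118 and 257) array 3 was the highest and array 2 the lowest. Mag, the dim Mobp probe and Lass2 mMC011756 were lowest on array 1 and highest on array 3, and the bright Mobp probe the other way round. The myelin probes thus did not share 1 order. Mag differed little between these arrays (143, 153 and 156), and Mog and the dim Mobp probe were at or close to background. Their orders therefore do not show whether the myelin genes moved together. Of the 20 named genes of the lists, some of which were at background, 5 had the order of Mbp, among them Pmp22. Another 7 had that of Lass2 mMC020529, among them Lass5, Ugt8a and Bcas1, while 8 had another order. Which property of the arrays or mice goes with these orders was not tested.

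The genes whose log2 intensity was most like each member over the 12 arrays were searched among 4100 probes above background in some group. The points are 4 groups of arrays that share an organ difference, and Pearson's r is a description. For Mag the closest were Snap25 (0.996), Hpca (0.995) and Hpcal4 (0.995), and for the bright Mobp probe Prkcz (0.997), Pgbd5 (0.996) and Nrgn (0.995). For Mbp they were Cx3cl1 (0.984), Neurl (0.982) and Cspg5 (0.979). Snap25, Hpca and Nrgn are genes of neurons, and each was higher in brain than in stomach. For Mog (Ppp5c 0.856, Tbcc 0.844, Timm8b 0.838) and the dim Mobp probe (Sec63 0.787, Runx1t1 0.713, 2610003J06Rik 0.685) likeness was lower. Lass2 mMC011756 was closest to 5830457O10Rik (0.958), Saps1 (0.930) and Hnrph1 (0.895), each lowest in mock brain in its group means. Lass2 mMC020529 was closest to Atxn2l (0.979), Vwa2 (0.977) and Pex5 (0.971). Atxn2l had group means of 87.1 to 96.4.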

How the data were processed

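RNA of 12 samples, 3 in each group, was labeled with Cy5 and hybridized to Mouse Whole Genome OneArrays. Per the methods, the authors corrected the GenePix signal of each spot for its surroundings, left out controls and spots whose signal-to-noise ratio fell below 0, and normalized with limma; the method within limma and its version are not given in the sources used here. The deposited values are linear intensities without counts, so the number of arrays limits the precision, and a floor remains that compresses the differences of dim probes. Probes were named from the annotation that pairs them with symbols.

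Intensities were taken to log2. In R 4.3.3, limma 3.58.1 (lmFit, and eBayes with an intensity trend) was applied to the 6 arrays of each comparison, with Benjamini-Hochberg adjustment over 29922 probes and a threshold of 0.05. Fits were tested on simulated data. Other genes were represented by their brightest probe. From the lists, all ceramide synthases and the 2 brightest genes of each role were named; Cldn11, Omg, Sox10 and Gjc3 are named outside this rule, with their values known. The members and lists were chosen with earlier results of these data known. Likeness is the highest Pearson correlation among probes above 2 times the lowest intensity in some group.

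Arrays with the same replicate number were checked for shared deviations from their group means over 2563 bright probes. The labels do not say what a number stands for. In chitosan mice the correlations of same-numbered brain and stomach arrays were 0.12, 0.45 and 0.60, and brain array 1 resembled stomach array 2 most. In the other 3 comparisons at least 1 correlation was negative. Between chitosan and mock stomach, which are different mice, same-numbered arrays 2 and 3 had 0.50 and 0.58. Correlations of this size thus arise without a shared mouse, so the check cannot show whether the numbers pair the organs. Alternatives comprised a single model of all 12 arrays, eBayes without the trend, the methods' t-test, median centering, a repeated quantile normalization, a floor at the 20th percentile, the brighter probes alone, the replicate number as a block, the ratio of linear means, 35 subtracted from each intensity with a minimum of 5, and each array left out in turn.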

Additional observations from a re-analysis of the deposited data

How the results depend on the processing

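In brain, chitosan over mock, the count of called probes was 0, and 3 with all 12 arrays in 1 model, 2 without the intensity trend, and 0 to 221 with each array left out (221 without chitosan brain array 3). The 110 probes at 2-fold became 185 by linear means, 857 after subtraction of 35, and 100 to 179 with arrays left out. In stomach the 0 called probes became 95 with all 12 arrays, 29 without the trend, 3 by the methods' t-test, 1 among brighter probes only, and 0 to 3 with arrays left out; the 156 at 2-fold became 885 after subtraction and 141 to 249. Between the organs in mock mice, 1908 called probes became 1183 by the t-test and 1387 to 2135 with arrays left out. In chitosan mice, 712 became 1206 with all 12 arrays, 389 by the t-test, and 0 to 1128 with arrays left out, 0 without chitosan stomach array 2.

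With the replicate block, 1247 probes were called between the organs in mock mice and 830 in chitosan mice. Whether the numbers pair the arrays is not known, and the block changed no call of a member probe.

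In brain, chitosan over mock, the sign of Mbp depended on chitosan brain array 2, as given above. The dim Mobp probe turned when low values were raised, to 0.0019 in mock and 0.0275 in chitosan mice between the organs. Lass2 mMC020529 turned between the organs in mock mice to 0.0109 after centering and 0.0018 after quantile normalization. With arrays left out, stomach differences on chitosan ran from -0.0134 to 0.0852 for the dim and -0.0451 to 0.0182 for the bright Mobp probe, from -0.3127 to 0.0592 for Lass2 mMC011756 and from -0.311 to 0.1543 for mMC020529. Between the organs, mMC020529 ran from -0.1513 to 0.2302 in mock and from -0.3687 to 0.1905 in chitosan mice, and in chitosan mice Mog ran from -0.2808 to 0.0806 and the dim Mobp probe from -0.0809 to 0.0177. Causes were not tested. In stomach most members lay close to background, which limits the size of any difference there.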
